A study of Mus musculus with 16 samples.

Results

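The transcripts of 10 enzymes of sulfur amino acid metabolism were followed in the livers of 16 mice: Cbs, Cdo1, Tst, Cth, Mpst, Mat1a, Gnmt, Bhmt, Ahcy and Csad, 10 of the 20826 gene symbols in the table. The genes were found by symbol, and transcript rows of the same symbol were summed. Cbs and Tst were chosen by their measured responses to a krill extract, which were opposite, and Cdo1 was named beside them, so the extract contrasts of these 3 genes are given as descriptions with no test. Liver RNA was measured by SuperSAGE, in which each captured cDNA is represented by a short sequence next to a cut site of the enzyme NlaIII, and these tags are counted per gene. All mice were male C57BL/6J, labelled as aged 4 weeks, and were fed for 18 weeks, with 4 separate mice in each of 4 groups. The HFW mice ate the high-fat diet with 1% WEPAK, an extract of Pacific krill that dissolves in water, and the HF mice ate that high-fat diet, with 45% fat, alone. The NW mice ate the normal diet with 1% WEPAK, and the N mice ate that normal diet, with 10% fat, alone. Mice are named here by group and number.

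Methionine is activated to S-adenosylmethionine, the cell's main methyl donor, and after the methyl group is passed on the remainder becomes homocysteine. Homocysteine is either methylated back to methionine or joined to serine and turned into cysteine, the transsulfuration route, which in mammals is strong in liver. Cysteine is then built into glutathione, oxidised to taurine and sulfate, or broken down with release of sulfide, which mitochondria oxidise.

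The tags behind these counts differed in how well they single out a gene. The last NlaIII site was located in the GENCODE M21 transcripts (GRCm38) that match the table's RefSeq rows, and the 26 bases from that site were searched in all annotated transcripts. The deposited table names no tags, so the tag actually counted may differ. The tags of Cbs and Tst are shown because the contrast between these genes rests on them, that of Mpst because the gene is the close relative and neighbour of Tst, and that of Bhmt because it is not unique. Capitals mark the NlaIII site, and each sequence reads 5′ to 3′ on the transcript.
Cbs: CATGaccctgcttagcccactcctca
Tst: CATGgacttcctgacgaaagatggct
Mpst: CATGcgtgcccagccagagcatatca
Bhmt: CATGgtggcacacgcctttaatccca
The Cbs tag lies in the 3′ UTR at chr17:31612730-31612755 on the minus strand, 116 bases from the end of the transcript that holds all 728 Cbs tags; the second Cbs row has the same last tag and was listed with 0 tags. The Tst tag lies in coding sequence at chr15:78399962-78399987 on the minus strand, and the Mpst tag in coding sequence at chr15:78413623-78413648 on the plus strand, 13635 bases away. None of these 3 tags occurred in a transcript of another gene. The Bhmt tag, in the 3′ UTR at chr13:93616824-93616849 on the minus strand, also occurred in transcripts of 16 other genes and was the last tag in transcripts of 5 of them. Tags of Bhmt and of those genes cannot be told apart by this sequence.

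Libraries held 56684 to 149464 tags. Of these 56655 to 149349 were in named genes, so that 1 tag equals 6.70 to 17.7 CPM before normalization (CPM are tags per 1000000 of the normalized library total). Totals in named genes averaged 75749 ± 21588 tags in HFW, 118882 ± 23746 in HF, 74198 ± 30660 in NW and 75963 ± 16768 in N (SD, n = 4 each), so the HF libraries were the deepest on average. Of the 10 enzymes, 7 had enough tags to be among the 1046 genes tested, and Cth, Mpst and Csad did not. The 8 hepatocyte markers all had tags. The Kupffer cell and macrophage markers, 7 of which are in the table, summed to 69.9 to 225 CPM in HFW, 84.8 to 313 CPM in HF, 102 to 187 CPM in NW and 185 to 332 CPM in N. Cd68 among them had 0 tags, and the other 6 had some. The 9 markers of hepatocytes near the portal vein summed to 6630 to 12800 CPM in HFW, 4470 to 10600 CPM in HF, 11700 to 24800 CPM in NW and 7210 to 16700 CPM in N. All 9 had tags. The 7 markers of hepatocytes near the central vein summed to 1650 to 7620 CPM in HFW and 1900 to 4510 CPM in HF. They summed to 5020 to 9950 CPM in NW and 1810 to 9850 CPM in N, and all 7 had tags. In the mean extract effect 1 of the 6 tested hepatocyte markers rose, Ttr (0.85, SE 0.26, adjusted p = 0.0141, edgeR), and 1 of the 5 tested periportal markers, Pck1 (0.92, SE 0.23, adjusted p = 0.0032, edgeR), where 31.3% of all genes were called. The hepatocyte markers that did not pass had log2 values from 0.03 for Fgb to 0.60 for Cyp2e1, and the periportal ones from -0.05 for Cyp2f2 to 0.34 for Hsd17b13. The 4 tested markers of hepatocytes near the central vein did not pass, with values from 0.22 for Oat to 0.71 for Glul. The part of these cell markers in the enzyme levels was not tested. In bulk liver, fewer cells of a type and less RNA per cell cannot be told apart.

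Cbs, cystathionine beta-synthase, which commits homocysteine to transsulfuration, was more abundant with WEPAK on both diets. Its level was 743, 262, 484 and 799 CPM in HFW mice 34, 36, 38 and 40, against 305, 250, 131 and 305 CPM in HF mice 23, 25, 28 and 29. On the normal diet it was 1109, 782, 1198 and 1199 CPM in NW mice 11, 12, 15 and 20, against 223, 629, 331 and 349 CPM in N mice 4, 5, 7 and 8. Every NW mouse lay above every N mouse, a pair separated in either direction for 15.5% of all genes tested, while HFW mouse 36 lay among the HF mice. The mean was 572 ± 248 CPM in HFW and 248 ± 82.1 CPM in HF, and 1072 ± 198 CPM in NW and 383 ± 173 CPM in N (SD, n = 4 each). Ordered by mean the groups ran NW, HFW, N and HF, and each group overlapped with the next. As a description of the choice, the log2 fold change was 1.24 (SE 0.34) for HFW minus HF and 1.44 (SE 0.33) for NW minus N. The mean extract effect was 1.34 (SE 0.24), and 1.23 to 1.53 when each mouse was left out in turn, which is no independent support since the gene was picked on these mice.

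Cth, cystathionine gamma-lyase, which takes the product of Cbs on to cysteine, was barely sampled. It had 12 tags in all 16 libraries, in 8 mice. The tags numbered 3 in HFW, 2 in HF, 2 in NW and 5 in N, all 5 of the last in N mouse 5. Per 1000000 tags of named genes these are 9.90, 4.21, 6.74 and 16.5, with exact 95% Poisson intervals of 2.04 to 28.9, 0.509 to 15.2, 0.816 to 24.3 and 5.34 to 38.4, which cover counting error only. The intervals overlap, and a difference in Cth between the groups was not detectable at this depth. Its annotated last tag, 248 bases from the transcript end, occurred in no other gene.

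Tst, thiosulfate sulfurtransferase or rhodanese, a mitochondrial enzyme that moves sulfur between thiosulfate, glutathione and cyanide, was less abundant with WEPAK on both diets. It had 580, 751, 391 and 479 CPM in HFW mice 34, 36, 38 and 40, against 2306, 2128, 680 and 1144 CPM in HF mice 23, 25, 28 and 29. On the normal diet it had 171, 374, 262 and 295 CPM in NW mice 11, 12, 15 and 20, against 1636, 1087, 728 and 747 CPM in N mice 4, 5, 7 and 8. Every NW mouse lay below every N mouse, a pair separated in either direction for 15.5% of all genes tested. On the high-fat diet the ranges overlapped through HF mouse 28, whose level was below that of HFW mouse 36. The mean was 550.5 ± 155 CPM in HFW and 1564 ± 780.1 CPM in HF, and 276 ± 84.2 CPM in NW and 1049.7 ± 424 CPM in N (SD, n = 4 each). The HF group was the most spread, with a coefficient of variation of 49.9%, against 28.1% in HFW. Ordered by mean the groups ran HF, N, HFW and NW. The last pair did not overlap, as every HFW mouse lay above every NW mouse. That pair was separated in either direction for 8.80% of all genes tested. The log2 fold change, again as a description, was -1.51 (SE 0.34) for HFW minus HF and -1.89 (SE 0.37) for NW minus N. The mean extract effect was -1.70 (SE 0.25), and -1.81 to -1.56 when each mouse was left out in turn, with the same limit as for Cbs.

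Mpst, mercaptopyruvate sulfurtransferase, the relative of Tst that releases sulfur from a product of cysteine, had 5 tags in all. They fell in 2 HF mice (2 tags) and 2 HFW mice (3 tags), and none were counted in the NW or N mice. A count of 0 allows up to 10.1 tags per 1000000 in the NW group and 9.87 in the N group (3 tags over the group total). On the basis used for Cth, the exact 95% Poisson intervals run up to 12.4 in NW and 12.1 in N, and a difference was not detectable at this depth.

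**Figure D1:**
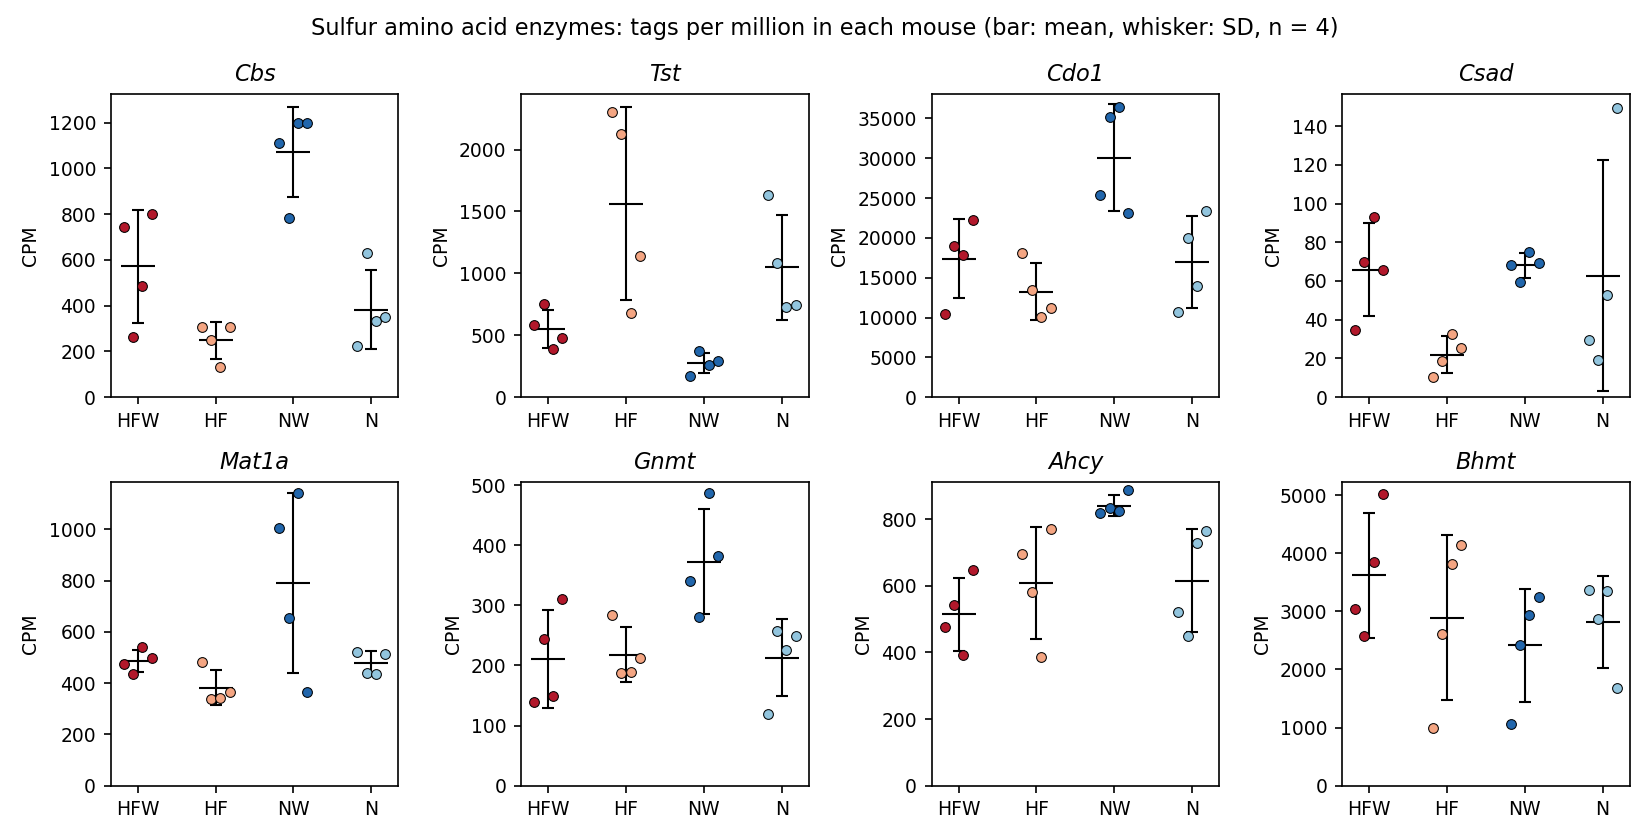
Level of 8 enzymes in CPM (vertical axes, from 0) in each mouse of the HFW, HF, NW and N groups; points are mice, bars means and whiskers SD (n = 4). Cbs is highest in NW, from 782 to 1199 CPM, where Tst is lowest, from 171 to 374 CPM.

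Cbs and Tst can also be set against each other within a library. There were 1.28, 0.349, 1.24 and 1.67 Cbs tags per Tst tag in HFW mice 34, 36, 38 and 40, against 0.132, 0.118, 0.193 and 0.267 in HF mice 23, 25, 28 and 29. The NW mice 11, 12, 15 and 20 had 6.50, 2.09, 4.57 and 4.06, against 0.136, 0.579, 0.455 and 0.467 in N mice 4, 5, 7 and 8. Within each diet no WEPAK-fed mouse overlapped with a mouse without WEPAK, which follows in part from how the genes were picked and is given with no test. None of the 7 tested enzymes alone was separated on both diets, as 2.01% of all genes were above and 3.44% below. After group means were removed, log2 levels of Cbs and Tst had a Pearson correlation of 0.01 over the 16 mice, against -0.74 with the group means kept (a description, over libraries of unequal depth).

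**Figure D2:**
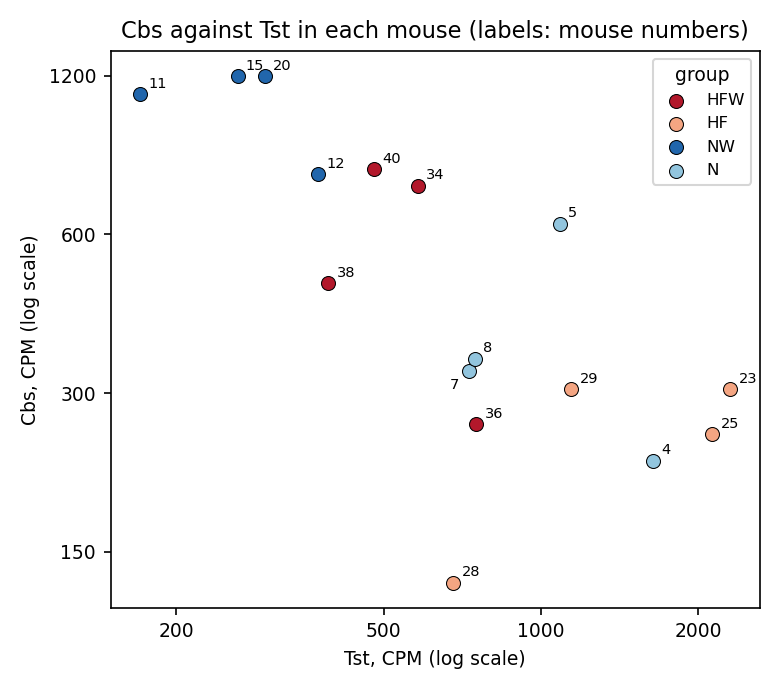
Cbs against Tst in CPM on log scales; each point is a mouse, coloured by group and labelled with its number. The NW mice sit at the upper left and HF mice 23, 25 and 29 at the lower right with N mouse 4, at 223 CPM of Cbs and 1636 CPM of Tst, while HF mouse 28 lies lowest, at 131 CPM of Cbs.

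Cdo1, cysteine dioxygenase, the first step from cysteine to taurine and sulfate, was the most heavily tagged of the 10 enzymes, with 1.88% of all tags and rank 7 among all genes by mean CPM. It had 10442, 18942, 17886 and 22274 CPM in HFW mice 34, 36, 38 and 40, against 18118, 13511, 10072 and 11181 CPM in HF mice 23, 25, 28 and 29. In NW mice 11, 12, 15 and 20 it had 25439, 35125, 36458 and 23171 CPM, against 10636, 19958, 13896 and 23355 CPM in N mice 4, 5, 7 and 8. Both pairs of groups overlapped. The mean was 17386 ± 4993 CPM in HFW and 13221 ± 3566 CPM in HF, and 30048 ± 6718 CPM in NW and 16961 ± 5752 CPM in N (SD, n = 4 each). As a description, the log2 fold change was 0.40 (SE 0.28) for HFW minus HF and 0.83 (SE 0.28) for NW minus N, with a mean extract effect of 0.61 (SE 0.20). With no filter the value for HFW minus HF was 0.145.

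Csad, cysteine sulfinic acid decarboxylase, follows Cdo1 on the way to taurine and had 66 tags, at least 1 in each mouse and at most 9. It had 34.8, 69.9, 93.2 and 65.8 CPM in HFW mice 34, 36, 38 and 40, against 10.5, 18.8, 32.8 and 25.4 CPM in HF mice 23, 25, 28 and 29. The HFW mice lay above the HF mice without overlap, as 15.7% of all tested genes were separated one way or the other, but the nearest values, in HFW mouse 34 and HF mouse 28, stand for 3 and 4 tags. The NW mice had 59.5 to 74.9 CPM and the N mice 19.1 to 149 CPM. Csad was below the filter. With no filter its log2 fold change was 1.24 (SE 0.64) for HFW minus HF and 0.20 (SE 0.60) for NW minus N, and neither passed (adjusted p = 0.697 and 1.0, Benjamini-Hochberg adjustment of the edgeR quasi-likelihood p).

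The other 4 tested enzymes belong to the methionine cycle. Mat1a, the liver form of the enzyme that makes S-adenosylmethionine, rose with WEPAK over both diets, by 0.54 on the log2 scale (SE 0.20, adjusted p = 0.0412, edgeR quasi-likelihood test, all 1046 genes). It was the 1 of these 4 enzymes that passed, in a contrast where 31.3% of all genes did, so the count is near the background. Mat1a had 476, 437, 540 and 498 CPM in HFW mice 34, 36, 38 and 40, against 484, 338, 344 and 364 CPM in HF mice 23, 25, 28 and 29. It had 1007, 654, 1142 and 365 CPM in NW mice 11, 12, 15 and 20, against 521, 439, 437 and 515 CPM in N mice 4, 5, 7 and 8. Of the NW mice, 3 lay above all N mice and mouse 20 below them. The call was lost without any of these mice: N mouse 4, 5 or 7, NW mouse 11 or 15, HF mouse 25, 28 or 29, or HFW mouse 38 or 40 (0.43 to 0.55, adjusted p 0.0509 to 0.128, edgeR quasi-likelihood test). It was also lost with no filter (0.40, adjusted p = 0.525), with libraries thinned to the smallest total (0.44, adjusted p = 0.109) and without the 10 most abundant genes (0.52, adjusted p = 0.0508), each by edgeR.

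Gnmt, glycine N-methyltransferase, which uses up excess S-adenosylmethionine, and Ahcy, which splits S-adenosylhomocysteine into homocysteine and adenosine, were highest in NW. Gnmt had 139, 245, 149 and 310 CPM in HFW mice 34, 36, 38 and 40, against 284, 188, 188 and 212 CPM in HF mice 23, 25, 28 and 29. It had 341, 280, 487 and 382 CPM in NW mice 11, 12, 15 and 20, against 119, 257, 225 and 249 CPM in N mice 4, 5, 7 and 8. Ahcy averaged 514 ± 108 CPM in HFW and 608 ± 168 CPM in HF, and 841 ± 31.2 CPM in NW and 615 ± 155 CPM in N (SD, n = 4 each). For both genes every NW mouse lay above every N mouse, a separation seen in either direction for 15.5% of all genes tested, while HFW and HF overlapped. The mean extract effect was 0.38 (SE 0.23, adjusted p = 0.211) for Gnmt and 0.12 (SE 0.19, adjusted p = 0.675) for Ahcy, and neither passed (edgeR quasi-likelihood test). Bhmt, which remakes methionine from homocysteine with betaine as methyl donor, had 2569 to 5026 CPM in HFW, 1000 to 4137 CPM in HF, 1058 to 3250 CPM in NW and 1678 to 3377 CPM in N. All 4 groups overlapped, its mean extract effect was 0.05 (SE 0.26, adjusted p = 0.899, edgeR quasi-likelihood test), and its tag is the one shared with other genes.

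The high-fat diet was set against the normal diet over both extract states, a contrast that the choice of Cbs and Tst did not use. None of the 7 tested enzymes passed the edgeR test, in which 6 of 1046 genes, or 0.574%, were called, 0.287% higher and 0.287% lower. At an unadjusted p under 0.05 there were 4 of the 7 (Cbs, Tst, Cdo1 and Mat1a), against 20.6% of all genes tested. This count was named after its values were seen, and the enzymes were chosen with earlier results of these data known. It is only a description. Cbs had a log2 fold change of -0.76 (SE 0.24, adjusted p = 0.0775), Tst of 0.77 (SE 0.25, adjusted p = 0.0852) and Cdo1 of -0.57 (SE 0.20, adjusted p = 0.115), by the edgeR quasi-likelihood test. Their mean extract effects, which use the same 16 mice, were 1.34, -1.70 and 0.61. Mat1a had -0.50 (SE 0.20, adjusted p = 0.170), Gnmt -0.38 (SE 0.23, adjusted p = 0.349), Ahcy -0.35 (SE 0.19, adjusted p = 0.289) and Bhmt 0.31 (SE 0.26, adjusted p = 0.512) in the same test. Of the 7 enzymes 2 had positive values, with a median of -0.38, against 50.9% positive and a median of 0.01 over all genes tested.

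That diet contrast depended on N mouse 4, whose Cbs level was the lowest and whose Tst level was the highest of the N mice. Without it, Cbs (-0.85, adjusted p = 0.0161), Tst (0.91, adjusted p = 0.0163) and Cdo1 (-0.66, adjusted p = 0.0283) passed by edgeR. The calls rose over all genes as well, to 107 of 1205, against 6 of 1046 with all mice. With DESeq2 (Wald test, all mice) Cbs passed too, at -0.76 and an adjusted p of 0.0490. With no filter Tst passed by edgeR (0.86, adjusted p = 0.0222), while Cbs (-0.64, adjusted p = 0.325) and Cdo1 (-0.475, adjusted p = 0.387) moved away from the threshold. Tst also passed when HF mouse 28 was left out, at 0.90 (adjusted p = 0.0476). Without N mouse 5, which had the highest Cbs level of the N mice, Cbs was at -0.566 (adjusted p = 0.214, edgeR) in the mean diet effect and at -0.26 (adjusted p = 0.843, edgeR) in HF minus N. Over all mice left out in turn the adjusted p ran from 0.0161 to 0.214 for Cbs, 0.0163 to 0.204 for Tst and 0.0283 to 0.275 for Cdo1 (edgeR). The 6 stellate cell markers summed to 821 to 4000 CPM in HFW and 290 to 899 CPM in NW. Their sums were 400 to 3810 CPM in HF and 498 to 982 CPM in N. In the mean diet effect all 6 tested hepatocyte markers had negative log2 values, from -0.93 for Cyp2e1 to -0.25 for Apoc3. So did all 5 tested periportal markers, from -0.85 for Cps1 to -0.46 for Cyp2f2. The 4 tested markers near the central vein ran from -0.93 for Cyp2e1 to 0.59 for Slc1a2. The 3 tested stellate markers ran from 1.09 to 1.65. None of these passed (lowest adjusted p = 0.0617, for Pck1 and Cps1, edgeR). The part of these markers in the diet contrast was not tested.

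By extract state, the diet difference of Cbs was -0.86 (SE 0.32) for HFW minus NW and -0.66 (SE 0.34) for HF minus N. Tst had 0.96 (SE 0.37) for HFW minus NW and 0.57 (SE 0.33) for HF minus N. Cdo1 had -0.79 (SE 0.28) for HFW minus NW and -0.36 (SE 0.28) for HF minus N. None of these passed (adjusted p from 0.266 to 0.657, edgeR quasi-likelihood test). With WEPAK, every HFW mouse lay below every NW mouse for Cdo1 and Ahcy and above for Tst, 3 of the 7 enzymes, where the groups did not overlap for 8.80% of all genes tested. Without WEPAK the HF and N mice overlapped for all 7, against 3.06% of genes without overlap. In HFW minus NW the edgeR test and the DESeq2 Wald test both called 0 genes, with 126 (12.0%) at an unadjusted p under 0.05 by edgeR, among them 6 of the 7 enzymes, all but Bhmt. In HF minus N edgeR called 1 gene, 0.0956% of those tested, and 9.85% had an unadjusted p under 0.05, among them 0 of the 7. Both of these diet contrasts share mice with the extract contrasts by which Cbs and Tst were picked. The values of Cbs and Tst in them are not independent of that choice, so the count of 6 is only a description. The difference between these diet contrasts is the same interaction as that between the extract effects.

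**Figure D3:**
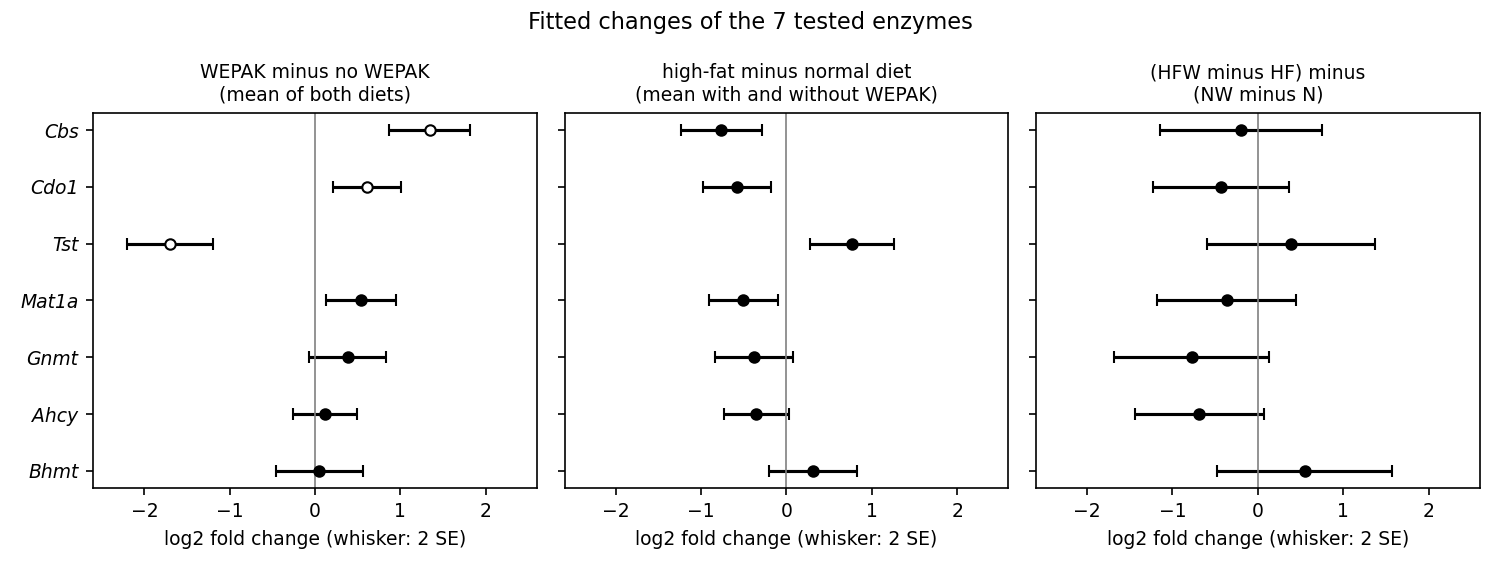
Log2 fold change (horizontal axis, whiskers 2 SE) of the 7 tested enzymes for the mean extract effect, the mean diet effect and the difference between the extract effects on the 2 diets. Open points in the first panel mark Cbs and Tst, picked for their extract responses, and Cdo1, named beside them, given with no test. Cbs lies at 1.34 in the first panel and -0.76 in the second, and Tst at -1.70 and 0.77.

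Whether the extract effect differed between diets was tested as an interaction: the difference of HFW and HF, less that of NW and N. It was -0.20 (SE 0.48) for Cbs, 0.38 (SE 0.49) for Tst and -0.43 (SE 0.40) for Cdo1. The values were largest for Gnmt (-0.77, SE 0.45) and Ahcy (-0.68, SE 0.38), with Bhmt at 0.55 (SE 0.51) and Mat1a at -0.37 (SE 0.41). None passed (adjusted p = 0.998 for all 7, edgeR quasi-likelihood test), and 0 of 1046 genes, 0.0%, were called by edgeR or by the DESeq2 Wald test, with 26 (2.49%) at an unadjusted p under 0.05 by edgeR. An interval of 2 SE runs from -1.15 to 0.75 for Cbs and from -0.60 to 1.37 for Tst.

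Beyond the 10 enzymes, 8 lists of sulfur and methyl-group metabolism held 79 further genes, 14 of which had enough tags. For the mean extract effect 4 of the 14 rose and 2 fell, where 15.2% of all genes were called higher and 16.1% lower (edgeR quasi-likelihood test). In HFW minus HF 1 rose and 0 fell, where 9.85% of genes were called, 4.21% higher and 5.64% lower. That gene was Shmt2 (1.17, SE 0.33, adjusted p = 0.0200, edgeR), whose call was lost with no filter and without HF mouse 23, HF mouse 25 or HFW mouse 36 (0.93 to 1.11, adjusted p 0.0543 to 0.102). In NW minus N 0 rose and 2 fell, where 11.0% were called, 3.63% higher and 7.36% lower. These were Gclc (-0.80, SE 0.25, adjusted p = 0.0339) and Sqrdl (-0.99, SE 0.31, adjusted p = 0.0320, edgeR). The call of Gclc was lost with no filter and without N mouse 4, 5 or 7, NW mouse 12, 15 or 20, HF mouse 23, or HFW mouse 36 or 40 (-0.85 to -0.63, adjusted p 0.0505 to 0.152). That of Sqrdl was lost with no filter, with DESeq2, with thinned libraries and without N mouse 4, 7 or 8, NW mouse 11, 15 or 20, or HFW mouse 36 or 40 (-1.04 to -0.84, adjusted p 0.0505 to 0.387). In the mean diet effect 0 of the 14 were called by edgeR, where 0.574% of all genes were. At an unadjusted p under 0.05 there were 3 of the 14, Pipox, Gclc and Aldh1l1, a share near the 20.6% of all genes.

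Sqrdl, the mitochondrial sulfide:quinone oxidoreductase that starts sulfide oxidation, had the lower level with WEPAK that Tst also had. It was 139, 175, 186 and 169 CPM in HFW mice 34, 36, 38 and 40, against 242, 269, 188 and 254 CPM in HF mice 23, 25, 28 and 29. It was 136, 178, 112 and 122 CPM in NW mice 11, 12, 15 and 20, against 253, 238, 318 and 332 CPM in N mice 4, 5, 7 and 8. No WEPAK-fed mouse overlapped with the other group on its diet, which held in this direction for 3.44% of all genes tested. On the high-fat diet the nearest values, in HFW mouse 38 and HF mouse 28, stand for 10 and 23 tags and differ by less than a tag. By edgeR's quasi-likelihood test the mean extract effect was -0.76 (SE 0.21, adjusted p = 0.00742). Tst and Sqrdl were the 2 tested genes of the sulfide oxidation list.

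In glutathione synthesis the 2 tested genes beside Cbs went opposite ways. Gclc, the catalytic subunit of the first and limiting enzyme, fell by 0.61 on the log2 scale in the mean extract effect (SE 0.18, adjusted p = 0.00982, edgeR quasi-likelihood test). Its level was 4885, 3460, 4658 and 3814 CPM in HFW mice 34, 36, 38 and 40, against 5632, 7172, 4799 and 4764 CPM in HF mice 23, 25, 28 and 29. It was 3310, 2524, 2584 and 2034 CPM in NW mice 11, 12, 15 and 20, against 4998, 5788, 3891 and 3538 CPM in N mice 4, 5, 7 and 8. All NW mice lay below all N mice, a pair separated in either direction for 15.5% of all genes tested. On the high-fat diet the groups overlapped through HFW mouse 34. Oplah, which returns 5-oxoproline to glutamate in glutathione turnover, rose by 0.85 (SE 0.27, adjusted p = 0.0172, edgeR quasi-likelihood test). It averaged 177 ± 44.5 CPM in HFW and 97.3 ± 32.6 CPM in HF, and 180.4 ± 44.7 CPM in NW and 102 ± 55.0 CPM in N (SD, n = 4 each). Every HFW mouse lay above every HF mouse, a pair separated in either direction for 15.7% of all genes. The nearest values, in HFW mouse 34 and HF mouse 25, stand for 12 and 21 tags. Their gap is smaller than a tag in HFW mouse 34. The ranges of NW (131 to 229 CPM) and N (44.6 to 172 CPM) overlapped. Its call by edgeR was lost without N mouse 4 (0.73, adjusted p = 0.0516), with no filter (0.73, adjusted p = 0.250) or with thinned libraries (0.58, adjusted p = 0.159).

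A further 3 genes, of methyl-group and serine-derived carbon metabolism, rose with WEPAK in the mean effect. Shmt2, the mitochondrial serine hydroxymethyltransferase, rose by 1.07 (SE 0.23, adjusted p = 0.00113), Aldh1l1, a folate dehydrogenase, by 1.09 (SE 0.32, adjusted p = 0.0116) and Bhmt2, which methylates homocysteine with S-methylmethionine, by 0.71 (SE 0.22, adjusted p = 0.0147), all by the edgeR quasi-likelihood test. Shmt2 had 2239, 3023, 2124 and 2076 CPM in HFW mice 34, 36, 38 and 40, against 905, 720, 917 and 1653 CPM in HF mice 23, 25, 28 and 29. It averaged 2628 ± 681 CPM in NW and 1344 ± 724 CPM in N (SD, n = 4 each), with overlap through N mouse 8. Aldh1l1 averaged 201 ± 80.3 CPM in HFW and 92.4 ± 19.8 CPM in HF, and 311 ± 203 CPM in NW and 148 ± 88.3 CPM in N (SD, n = 4 each), with overlap on both diets. The call of Bhmt2 by edgeR was lost without NW mouse 15 (0.56, adjusted p = 0.0585) or with no filter (0.58, adjusted p = 0.198), and its last tag also occurred in transcripts of 4 other genes. Chdh, which oxidises choline on the way to betaine, had a mean extract effect of 0.91 (SE 0.36), just outside the threshold (adjusted p = 0.0517, edgeR). The other tested genes that did not pass ranged from -0.46 for Gamt, which makes creatine with a methyl group, to 0.38 for Hnf4a, a hepatocyte transcription factor.

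**Figure D4:**
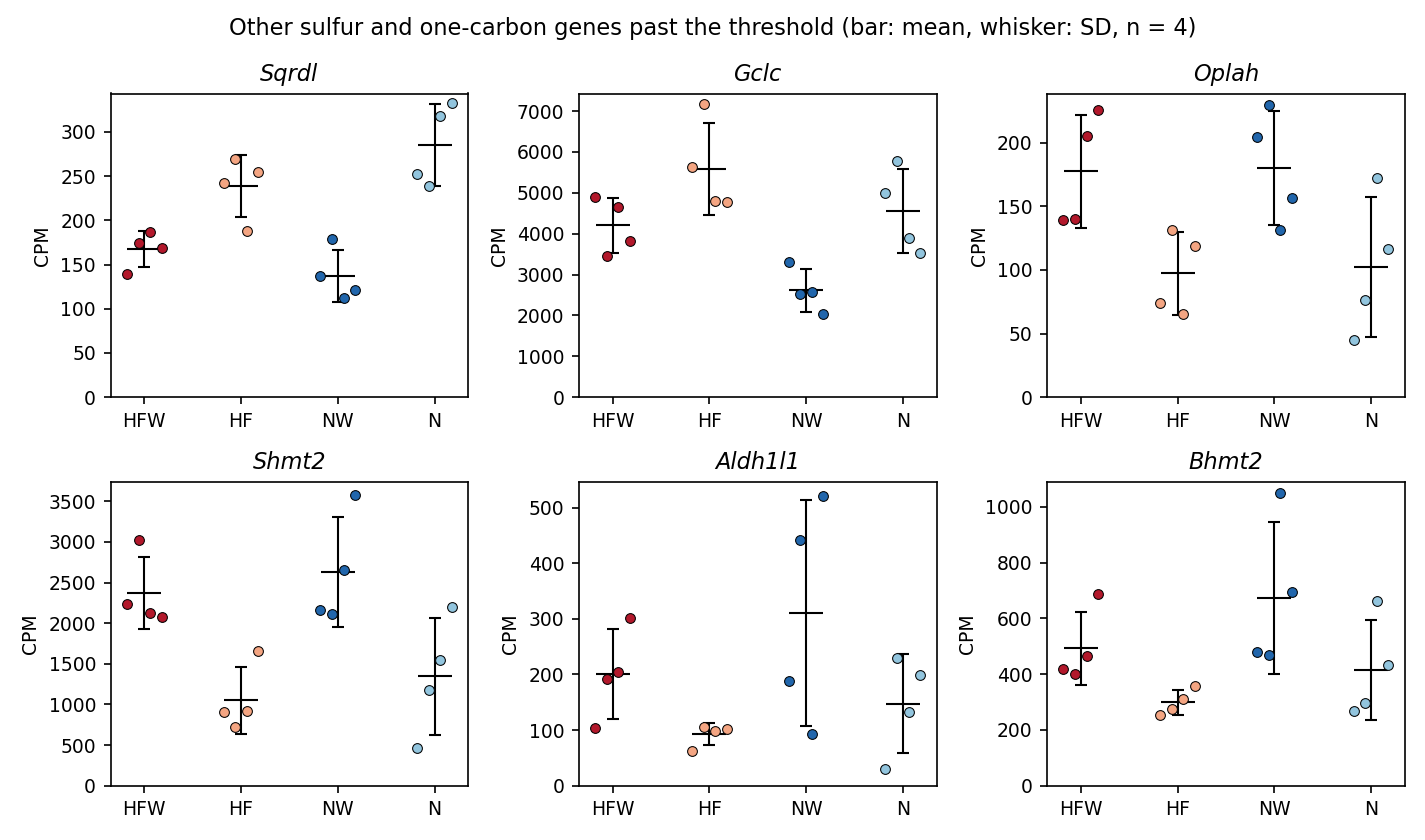
Level in CPM (vertical axes, from 0) of the 6 further genes called in the mean extract effect, in each mouse of the HFW, HF, NW and N groups; bars are means and whiskers SD (n = 4). Sqrdl and Gclc are lower in the WEPAK groups and the other 4 genes higher, with Gclc from 2034 to 3310 CPM in NW.

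The genes with the pattern most like that of Cbs, by Pearson correlation of log2 CPM over the 16 mice, were Fbp1 (0.90), Dus1l (0.89) and Atp13a1 (0.88). Those most like Tst were Clptm1 (0.94), Sephs2 (0.92) and Etnk2 (0.92). Among the enzymes themselves, Cdo1 and Gnmt had the highest correlation after group means were removed (0.71). These correlations describe the same libraries that gave the group differences.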

How the data were processed

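The authors deposited raw SuperSAGE tag counts per RefSeq transcript for each mouse, per the file headers. Per the labels' protocols, oligo-dT cDNA was cut with NlaIII, and EcoP15I released the tags, which were amplified by PCR. How tags were matched, the RefSeq release and the handling of shared tags: not given in the sources used here. No molecular identifiers or batches are labelled. Rows without a symbol (417, 0.0729% of tags) were left out and counts summed per symbol. Counts were analysed with edgeR 4.0.16 in R 4.3.3: TMM, the default filter (minimum count 10), and the quasi-likelihood test (robust, all 16 libraries, group means as coefficients), adjusted over all 1046 genes at 0.05. SE is the log2 fold change over the square root of F and is approximate. CPM use the TMM-scaled total, and log2 CPM a prior count of 2. Same-group libraries were compared for duplicates (chi-square per degree of freedom 2.93 to 15.0, so none was a copy). The fit was tested on simulated counts. Of 2-fold changes it found 83.8% for the mean extract effect, 77.3% for the mean diet effect, 42.8% for HF minus N and 9.67% for the interaction. Of 1.5-fold changes it found 22%, 18.2%, 0.167% and 0.5% in the same order. Named genes were the 10 enzymes, list genes that passed (up to 4 a list and contrast) and the 3 genes most like each of Cbs and Tst; the count at an unadjusted p was named after its values were seen. Members and lists were chosen with earlier results of these data known. Alternatives were DESeq2 size factors, the DESeq2 1.42.0 Wald test, 2 other filters, RefSeq rows separately and leaving out each mouse. Thinning to the smallest total and leaving out the 10 most abundant genes were added after seeing the data.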

Additional observations from a re-analysis of the deposited data

How the results depend on the processing

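No paired analysis was possible because mouse numbers differ in all 4 groups. The genes called in the mean diet effect numbered 30 with no filter (25 higher and 5 lower) and 34 with the DESeq2 Wald test (15 higher and 19 lower), against 6. They ranged from 0 (without N mouse 7, NW mouse 11 or 15, or HF mouse 23) to 107 (without N mouse 4) when a mouse was left out, with 1 without N mouse 5, 3 without N mouse 8, 16 without HF mouse 29 and 11 without HFW mouse 40. HF minus N had 2 genes with the DESeq2 Wald test and 0 (without N mouse 5, 7 or 8, NW mouse 11, or HF mouse 23 or 25) to 31 (without N mouse 4), against 1, with 2 without HFW mouse 34. HFW minus NW had 0 to 3, the 3 without NW mouse 20. NW minus N had 70 with no filter (12 higher and 58 lower, against 38 and 77), and 31 (without N mouse 4) to 178 (without N mouse 8), with 47 without NW mouse 15. HFW minus HF had 40 (without HF mouse 25) to 150, with 51 without HF mouse 23, 59 without HFW mouse 38 and 65 without HFW mouse 40, and 106 with no filter (11 higher and 95 lower, against 44 and 59). The mean extract effect had 263 to 386, and 254 with no filter (65 higher and 189 lower, against 159 and 168). The interaction had 0. Bhmt in the mean extract effect, 0.05, was -0.081 with no filter and -0.091 to 0.167 without a mouse: -0.007 without N mouse 8, -0.005 without NW mouse 15 or 20, -0.091 without HF mouse 23 and -0.032 without HFW mouse 40. Ahcy was -0.006 with no filter, against 0.12. The cause was not tested. Cdo1 has no value without the 10 most abundant genes, being among them. Cth, Mpst and Csad had too few tags for the filter. Whether depth or the matching of tags kept their counts low was not tested.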
